A study of Mus musculus with 6 samples.

Results

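Toll-like receptors are the pattern recognition receptors that macrophages use to detect microbial lipids, proteins and nucleic acids. Here 10 genes of the family were followed, chosen by gene name among the 54532 genes of the deposited table. The surface receptors were Tlr1, Tlr2, Tlr4 and Tlr6. The endosomal receptors were Tlr3, Tlr7, Tlr8, Tlr9 and Tlr13, and Unc93b1 encodes the membrane protein that carries endosomal receptors out of the endoplasmic reticulum. The set was chosen because Tlr7 and Tlr13 stood many-fold higher in a single library, CaP Zn0.8Mn replicate 1, so every value that sets this library against the others is a description and carries no test. The same genes were then tested between the alloys in the other 5 libraries.

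RAW 264.7 cells, a mouse macrophage line, were cultured for 3 days on zinc alloy scaffolds before polyadenylated RNA was sequenced. The 3 groups of 2 libraries are CaP Zn0.8Mn0.1Li, an alloy with manganese and lithium, CaP Zn0.8Mn, an alloy with manganese, and CaP Zn, whose label names neither metal. All groups share the cell line, the culture time and the CaP label, and no group without a scaffold was analysed here. Whether libraries that share a group are separate cultures is not stated in the labels, so a p-value here measures spread between libraries that could be technical.

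Toll-like receptors bind ligand through leucine-rich repeats and signal through a cytoplasmic TIR domain, which recruits the adaptors MyD88 or TRIF. Surface receptors mainly meet lipids and proteins of the microbial envelope, whereas endosomal receptors meet nucleic acids, depend on Unc93b1 for transport and are cut by proteases in the endolysosome. Both routes lead through IRAK and TRAF proteins to NF-kappaB and interferon regulatory factors, and so to cytokines such as TNF.

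Library totals ran between 14944070 and 17709290 counts. CaP Zn0.8Mn replicate 1 differed from the rest over the whole transcriptome: its correlation with them, across genes on the log2 CPM scale, was 0.812 to 0.845, against 0.989 to 0.995 among the others. Mitochondrial genes held 7.88% of its counts, against 1.82% to 2.15% in the other 5. The summed level of 8 macrophage marker genes was 10822 CPM in this library and 11404 to 17150 CPM in the others. Within that list Csf1r was 4.37-fold and Mpeg1 5.79-fold higher in CaP Zn0.8Mn replicate 1, whereas Lyz2 was 2.26-fold lower. Markers of T and NK cells and of epithelial and endothelial cells summed to 0.127 CPM each in this library, and 4 of 6 and 5 of 7 of those genes had no count in any of the 6 libraries. Of 10 microglia and brain macrophage markers, Cx3cr1 stood at 568 CPM in CaP Zn0.8Mn replicate 1, against 13.2 to 27.0 CPM in the other 5, and the list summed to 1031 CPM against 273 to 332 CPM. The defining microglial gene P2ry12 was at 0.254 CPM in that library and Fcrls was at 0. Of the other marker lists, B cell genes summed to 35.8 CPM in that library against 20.9 to 22.9 CPM, and dendritic cell genes to 103 CPM against 459 to 537 CPM. Within the dendritic cell list Bst2 stood at 82.6 CPM in that library against 451 to 531 CPM, whereas Itgax stood at 16.8 CPM against 1.91 to 5.75 CPM. Fibroblast and bone genes summed to 7.16 CPM there against 13.7 to 17.4 CPM, and neutrophil genes to 0.254 CPM against 0.875 to 2.18 CPM. Single genes carried most of the gaps in the B cell, bone and neutrophil lists. Blnk had 35.4 CPM in that library against 20.8 to 22.7 CPM, and Runx2 had 6.85 CPM against 13.7 to 17.1 CPM. S100a8 had 0.0634 CPM, on 1 count, against 0.711 to 2.18 CPM. What part these shifts have in the receptor values was not tested. The X-linked transcripts Xist and Tsix had 0 counts in all 6 libraries, and 4 Y-linked genes summed to 247 CPM in CaP Zn0.8Mn replicate 1 and 175 to 197 CPM in the others. Whether that library holds the same cells as the other 5 was not tested. CPM values here are counts relative to library size, scaled by the trimmed mean of M-values (TMM), and 3 counts correspond to 0.164 to 0.195 CPM.

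The endosomal receptors carried the widest gap. Tlr7, a sensor of single-stranded RNA, had 267 CPM in CaP Zn0.8Mn replicate 1, against 3.27 and 4.17 CPM on CaP Zn0.8Mn0.1Li, 9.70 CPM in CaP Zn0.8Mn replicate 2, and 8.48 and 5.02 CPM on CaP Zn. Tlr13, which in mice binds bacterial ribosomal RNA, had 136 CPM in that library, against 2.24 and 2.08 CPM on CaP Zn0.8Mn0.1Li, 2.73 CPM in CaP Zn0.8Mn replicate 2, and 3.66 and 2.77 CPM on CaP Zn. These levels were 43.6-fold for Tlr7 and 50.3-fold for Tlr13 over the mean of the other 5 libraries. Among the 9765 genes averaging at least 5 CPM over all 6 libraries, Tlr13 ranked first and Tlr7 second by this ratio. Tlr13 averaged 2.70 CPM in the other 5 libraries, so it met that limit only through CaP Zn0.8Mn replicate 1. Both genes were picked for their height in that library, so the ranks are description and not evidence. In bulk RNA, more cells with a receptor and more RNA per cell cannot be told apart. Tlr7 rested on 4218 counts in CaP Zn0.8Mn replicate 1 and on 54 to 155 in the other libraries, and Tlr13 on 2139 and on 34 to 67.

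Tlr8, the X-linked neighbour of Tlr7 and likewise a sensor of RNA, had 17.8 CPM in CaP Zn0.8Mn replicate 1, against 0.303 and 0.552 CPM on CaP Zn0.8Mn0.1Li, 0.846 CPM in CaP Zn0.8Mn replicate 2, and 0.930 and 0.515 CPM on CaP Zn. Its ratio to the mean of the other 5 was 28.3, on 281 counts against 5 to 17. Tlr3, the receptor for double-stranded RNA, had 12.2 CPM in that library, against 1.09 and 0.736 CPM on CaP Zn0.8Mn0.1Li, 0.976 CPM in CaP Zn0.8Mn replicate 2, and 1.20 and 1.03 CPM on CaP Zn, a ratio of 12.2. Tlr9, the receptor for unmethylated CpG DNA, had 31.7 CPM there, against 2.12 and 2.94 CPM on CaP Zn0.8Mn0.1Li, 2.99 CPM in CaP Zn0.8Mn replicate 2, and 4.98 and 3.47 CPM on CaP Zn, a ratio of 9.60. In each of the 5 endosomal genes CaP Zn0.8Mn replicate 1 lay above all other libraries.

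The surface receptors were also higher in that library, at smaller ratios. Tlr4, the receptor for lipopolysaccharide, had 171 CPM in CaP Zn0.8Mn replicate 1, against 22.3 and 21.5 CPM on CaP Zn0.8Mn0.1Li, 23.6 CPM in CaP Zn0.8Mn replicate 2, and 30.5 and 23.0 CPM on CaP Zn, a ratio of 7.06. Tlr2, which senses bacterial lipoproteins, had 225 CPM there, against 68.6 and 67.9 CPM on CaP Zn0.8Mn0.1Li, 80.7 CPM in CaP Zn0.8Mn replicate 2, and 75.6 and 71.7 CPM on CaP Zn, a ratio of 3.09. Its heterodimer partners Tlr1 and Tlr6 had ratios of 3.77 and 3.49, with 22.4 and 19.5 CPM in CaP Zn0.8Mn replicate 1 against 4.89 to 6.89 CPM and 3.93 to 6.56 CPM in the other libraries. Of the stretches of 50 bases in their exons, 15.4% for Tlr1 and 12.3% for Tlr6 also occur elsewhere, mainly in each other, so their counts may be partly exchanged.

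The promoter windows of 7 of the 10 genes were in the RefSeq table for GRCm38.p6, and 4 are printed: the endosomal genes Tlr13, Tlr8 and Tlr9, which span the endosomal ratios, and Tlr1 as a surface gene. Only bases upstream of every annotated exon are given, 5' to 3' on the gene's strand. Capitals mark matches of the PU.1 core GAGGAA, of the AP-1 site TGANTCA, of the C/EBP site TTGCNNAA and of the TATA box TATAAA on either strand. The interferon response element and the E-box CACGTG were also searched and matched in none of these 4. PU.1 is the lineage factor of macrophages.
Tlr13, chrX:106143025-106143203, plus strand: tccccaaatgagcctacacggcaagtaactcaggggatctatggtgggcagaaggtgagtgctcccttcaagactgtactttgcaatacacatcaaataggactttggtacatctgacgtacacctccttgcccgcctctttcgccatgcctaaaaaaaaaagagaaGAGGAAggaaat
Tlr8, chrX:167264330-167264579, minus strand: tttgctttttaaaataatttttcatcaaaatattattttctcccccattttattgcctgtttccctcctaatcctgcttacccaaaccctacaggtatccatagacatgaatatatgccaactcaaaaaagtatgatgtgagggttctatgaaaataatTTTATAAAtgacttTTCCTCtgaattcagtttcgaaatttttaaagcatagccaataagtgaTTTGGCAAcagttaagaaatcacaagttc
Tlr9, chr9:106222348-106222597, plus strand: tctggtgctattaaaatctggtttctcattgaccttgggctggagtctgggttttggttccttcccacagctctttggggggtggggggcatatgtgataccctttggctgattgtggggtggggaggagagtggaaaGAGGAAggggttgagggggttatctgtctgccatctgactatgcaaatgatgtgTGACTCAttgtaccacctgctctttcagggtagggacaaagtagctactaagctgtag
Tlr1, chr5:64933564-64933808, minus strand: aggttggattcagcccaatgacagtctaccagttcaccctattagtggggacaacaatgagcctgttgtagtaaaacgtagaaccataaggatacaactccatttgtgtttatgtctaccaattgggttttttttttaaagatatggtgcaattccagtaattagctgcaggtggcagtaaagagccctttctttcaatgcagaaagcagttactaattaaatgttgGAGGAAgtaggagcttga
All 4 printed windows hold the PU.1 core, on the sense strand in Tlr13, Tlr9 and Tlr1 and on the antisense strand in Tlr8. Among 32851 RefSeq promoter windows, 23.3% held it in 250 bases, the length of the Tlr8 and Tlr9 windows, 22.7% in 245 bases, the length for Tlr1, and 17.1% in 179 bases, the length for Tlr13. The unprinted windows of Tlr2 (91 bases) and Tlr6 (250 and 201 bases) hold no PU.1 core, and Tlr3 had no base outside an exon. Tlr9 also holds the AP-1 site, and Tlr8 a C/EBP site and TATA boxes on both strands that overlap each other. A match is a run of letters in a window and was not tied to any binding measurement.

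All 9 receptors stood above the other 5 libraries by more than 2-fold in CaP Zn0.8Mn replicate 1, where 13.5% of the 13627 tested genes were over 2-fold higher and 37.9% lay above all 5 others. The lowest endosomal ratio, 9.60 for Tlr9, was above the highest surface ratio, 7.06 for Tlr4. The median log2 ratio was 4.82 over the 5 endosomal receptors and 1.86 over the 4 surface receptors, beside -0.10 over all tested genes. Over 10-fold higher were Tlr3, Tlr7, Tlr8 and Tlr13, where 0.506% of all tested genes reached that fold. All 9 were also over 3-fold higher, where 5.58% of all tested genes were, and 24.3% were over 1.5-fold higher. Since the genes were picked for this library, the shares are context and not evidence. The values of the other libraries span 1.19-fold for Tlr2 and 3.07-fold for Tlr8.

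**Figure D1:**
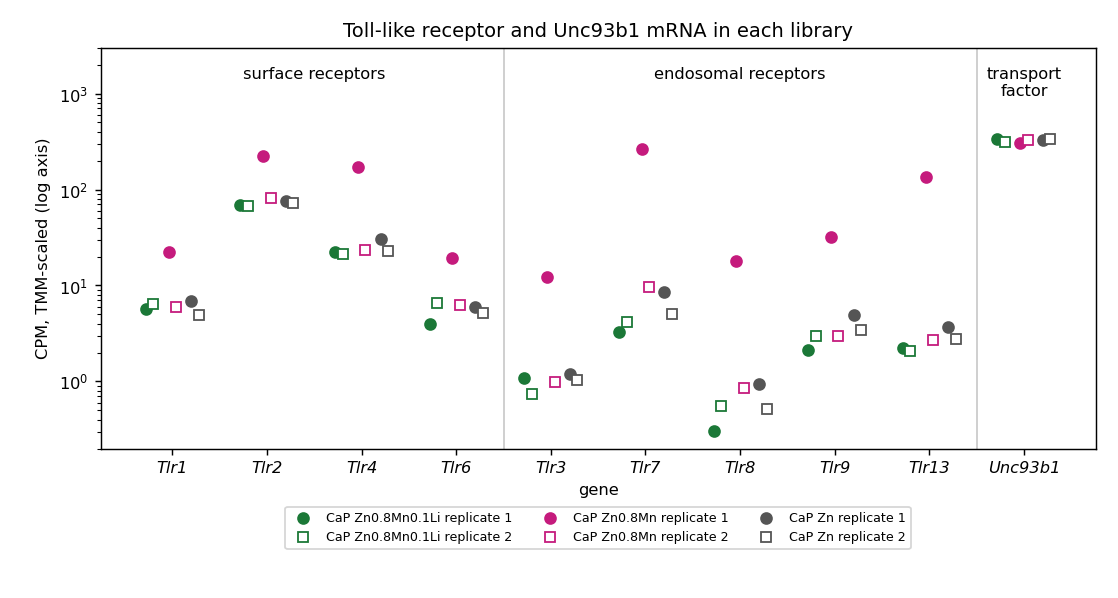
Level of each of the 10 genes in every library, in TMM-scaled CPM on a log axis, with points for single libraries coloured by alloy. CaP Zn0.8Mn replicate 1 lies above the other 5 libraries for all 9 receptors, at 267 CPM for Tlr7, and below them at 304 CPM for Unc93b1.

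Unc93b1 did not share the shift. It had 304 CPM in CaP Zn0.8Mn replicate 1, against 334 and 315 CPM on CaP Zn0.8Mn0.1Li, 330 CPM in CaP Zn0.8Mn replicate 2, and 326 and 335 CPM on CaP Zn. That was the lowest of the 6 values, at 0.927 of the mean of the others, where 44.4% of all tested genes lay below all 5. The other 5 libraries spanned 1.06-fold for this gene, the narrowest span of the 10 genes.

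Levels of different genes were compared per length, as the FPKM values of the deposited table. In the other 5 libraries the mean FPKM ran from 114 for Unc93b1 through 23.8 for Tlr2 and 4.29 for Tlr4 to 1.75 for Tlr1, 1.48 for Tlr7, 1.48 for Tlr6, 0.934 for Tlr9, 0.617 for Tlr13, 0.191 for Tlr3 and 0.173 for Tlr8. The ranges of neighbours overlapped from Tlr1 down to Tlr13 and again between Tlr3 and Tlr8, so these orders are within the spread of the libraries. In CaP Zn0.8Mn replicate 1 the FPKM order was Unc93b1 at 109, Tlr2 at 76.0, Tlr7 at 66.5, Tlr13 at 32.0, Tlr4 at 31.2, Tlr9 at 9.25, Tlr1 at 6.79, Tlr6 at 5.30, Tlr8 at 5.04 and Tlr3 at 2.39. Tlr7 therefore stood at 2.13 times the FPKM of Tlr4 in that library, against 0.199 to 0.559 times in the others.

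Summed over genes, the endosomal receptors held 115 FPKM and the surface receptors 119 FPKM in CaP Zn0.8Mn replicate 1, so the endosomal share was 49.1%. That share was 7.01% and 8.09% on CaP Zn0.8Mn0.1Li, 11.1% in CaP Zn0.8Mn replicate 2, and 12.4% and 9.44% on CaP Zn. The endosomal sum was 1.06 times the Unc93b1 FPKM in CaP Zn0.8Mn replicate 1, against 0.0189 to 0.0423 times in the other 5 libraries.

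**Figure D2:**
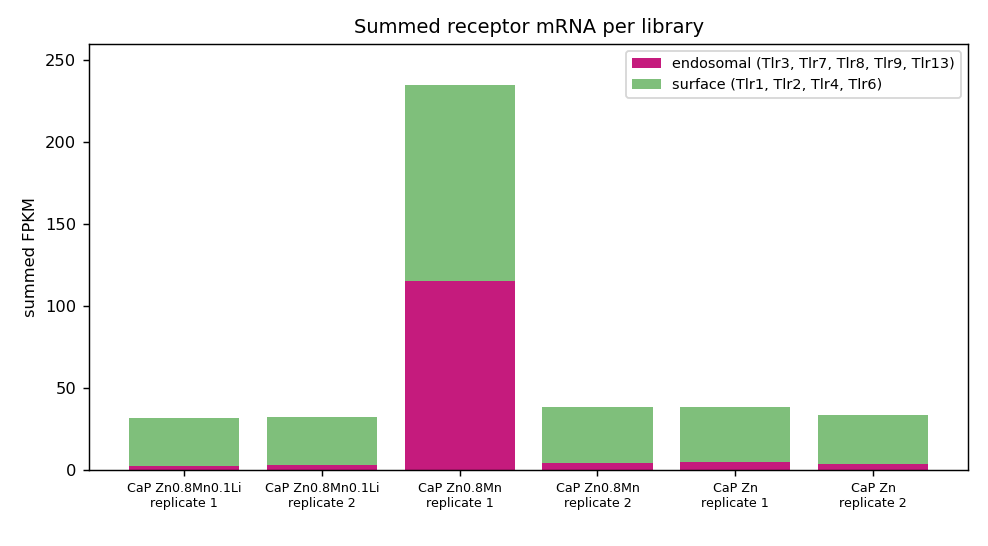
Summed FPKM of the 5 endosomal and the 4 surface receptors in each library, stacked from 0. The endosomal part is 115 FPKM in CaP Zn0.8Mn replicate 1 and at most 4.71 FPKM in any other library.

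Tlr5, Tlr11 and Tlr12, the remaining mouse receptors, had 0 counts in all 6 libraries and take no part in the sums. Tlr7, Tlr8 and Tlr13 lie on the X chromosome, and the other 7 genes on autosomes. The file places Tlr7 at chrX:167304929-167330558 and Tlr8 at chrX:167242696-167264329, both on the minus strand, with 40599 bases between them, and Tlr13 at chrX:106143204-106160493 on the plus strand. The coordinates match GRCm38. Tlr7, Tlr9 and Tlr13 each have 2 coding exons, and the surface genes Tlr1, Tlr2 and Tlr6 have 1. The number does not separate the classes, since transcripts of the surface gene Tlr4 have 3 to 4. Those of the endosomal genes Tlr8 and Tlr3 have 1 to 2 and 1 to 4. On autosomes, Tlr4 lies at chr4:66827584-66930284 and Tlr9 at chr9:106222598-106226883, both on the plus strand, and Tlr2 at chr3:83836272-83841767 on the minus strand. Tlr1 at chr5:64924679-64933563 and Tlr6 at chr5:64952031-64960097 are neighbours on the minus strand with 18467 bases between them. Tlr3 lies at chr8:45395665-45411080 on the minus strand, with an exon that overlaps Gm45542, which had 0 counts in all 6 libraries, and Unc93b1 at chr19:3935186-3949340 on the plus strand. Of 411 tested X-linked genes, 4 were over 10-fold higher in CaP Zn0.8Mn replicate 1, namely Tlr13, Tlr7, Tlr8 and Slc10a3, which is 0.973% against 0.403% of 13167 autosomal genes. Of these, Tlr13, Tlr7 and Tlr8 belong to the set, which was chosen for Tlr7 and Tlr13 in this library. The X-linked share therefore follows largely from the choice of genes and says nothing about the chromosome. The X chromosome as a whole had a median log2 ratio of 0.0017 against -0.10 on autosomes. Flanking genes did not share the receptors' ratios: Prps2 next to Tlr7 had a ratio of 1.61, Tmsb4x next to Tlr8 0.459, Atp7a next to Tlr13 1.34 and Cox7b 0.186.

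Genes whose profile over the 6 libraries was closest to Tlr7 were Cx3cr1, at a Euclidean distance of 0.760 on centred log2 CPM, then Tlr13 at 0.953 and mt-Nd2 at 1.60, among 9765 genes averaging at least 5 CPM. For Tlr13 the closest was again Cx3cr1, the fractalkine receptor, at 0.883. For Tlr4 it was Nlrp10 at 0.257, for Tlr9 Calhm2 at 0.330, for Tlr2 Smim10l1 at 0.119 and for Unc93b1 Tfe3 at 0.0407. These distances rest largely on CaP Zn0.8Mn replicate 1.

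The genes around the receptors differed in direction in CaP Zn0.8Mn replicate 1. Of 7 tested co-receptors, 2 were over 2-fold higher and 0 lower by that much, with a median log2 ratio of 0.77. Clec7a, the beta-glucan receptor, had 112 CPM in that library against 6.80 to 10.2 CPM in the others, and Cd180, which modulates TLR4 signalling, had 125 CPM against 14.8 to 17.8 CPM. Cd14, which passes lipopolysaccharide to TLR4, had 624 CPM against 304 to 381 CPM.

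Of 9 chaperones and trafficking genes, 1 was over 2-fold higher and 2 over 2-fold lower, where 20.4% of all tested genes were over 2-fold lower. Slc15a3, an endolysosomal transporter, had 28.7 CPM in that library against 51.5 to 80.9 CPM, and Hsp90b1, the folding chaperone of these receptors, had 583 CPM against 1072 to 1267 CPM. Rab7b, a late endosomal GTPase, had 94.9 CPM against 39.8 to 53.9 CPM. Of 9 processing enzymes, 3 were over 2-fold lower and 0 higher by that much: the cathepsin Ctsl had 361 CPM against 921 to 1249 CPM, the thiol reductase Ifi30 had 126 CPM against 297 to 347 CPM, and the cathepsin Ctsk had 38.5 CPM against 68.5 to 121 CPM. The median log2 ratio was -0.29 over the trafficking genes and -0.50 over the enzymes.

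Downstream, 1 of 5 tested TIR adaptors was over 2-fold higher, where 13.5% of all tested genes were, with a median log2 ratio of 0.28. Ticam2, the bridge between TLR4 and TRIF, had 28.5 CPM in CaP Zn0.8Mn replicate 1 against 8.47 to 12.7 CPM, and Tirap, a sorting adaptor, had 20.0 CPM against 12.2 to 16.4 CPM. Ticam1, which encodes TRIF, had 34.6 CPM against 24.1 to 31.9 CPM. Among 17 kinases and ligases, 2 were higher and 1 was lower by over 2-fold, beside 13.5% and 20.4% of all tested genes. Their median was 0.23. The ligase Traf6 had 77.1 CPM against 24.2 to 31.9 CPM, the kinase Irak4 had 40.4 CPM against 13.8 to 21.8 CPM, and Irak2 had 61.0 CPM against 126 to 165 CPM.

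Further down the pathway, 6 of 10 transcription factors and 8 of 13 negative regulators lay below all other 5 libraries, where 44.4% of all tested genes did. Of the 10 transcription factors, 1 was over 2-fold lower and 0 over 2-fold higher, with a median log2 ratio of -0.38: Irf7, the interferon regulatory factor of the endosomal route, had 78.0 CPM in that library against 312 to 383 CPM. The NF-kappaB subunit Rel had 85.2 CPM against 150 to 177 CPM, and Irf3 had 12.6 CPM against 17.6 to 25.3 CPM. Of 13 negative regulators, 7 were over 2-fold lower, where 20.4% of all tested genes were, and 2 over 2-fold higher, where 13.5% were. Their median was -1.03. Zc3h12a, an RNase that degrades cytokine mRNA, had 11.3 CPM against 69.3 to 85.9 CPM, and the inhibitor Nfkbia had 54.2 CPM against 137 to 186 CPM. Il1rl1, a receptor of the IL-1 family, had 45.8 CPM against 9.51 to 13.6 CPM.

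All 8 tested cytokine and chemokine genes that Toll-like receptors are known to induce were over 2-fold lower in CaP Zn0.8Mn replicate 1. Of all tested genes 20.4% were, and the median log2 ratio of the 8 was -3.09. Cxcl2, a neutrophil chemokine, had 4.94 CPM in that library against 129 to 175 CPM in the others. Ccl3 had 76.8 CPM against 681 to 932 CPM, and Tnf had 13.4 CPM against 114 to 154 CPM. Ccl5 had 0 counts in that library and was at least 22.1-fold lower, taking 3 counts in this library as the floor. The receptors thus stood highest in the library where these cytokine transcripts stood lowest. Both lists were chosen with earlier results of these data known, so this is a description. The part that the mitochondrial share of 7.88% and the marker shifts above play in these values was not tested.

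**Figure D3:**
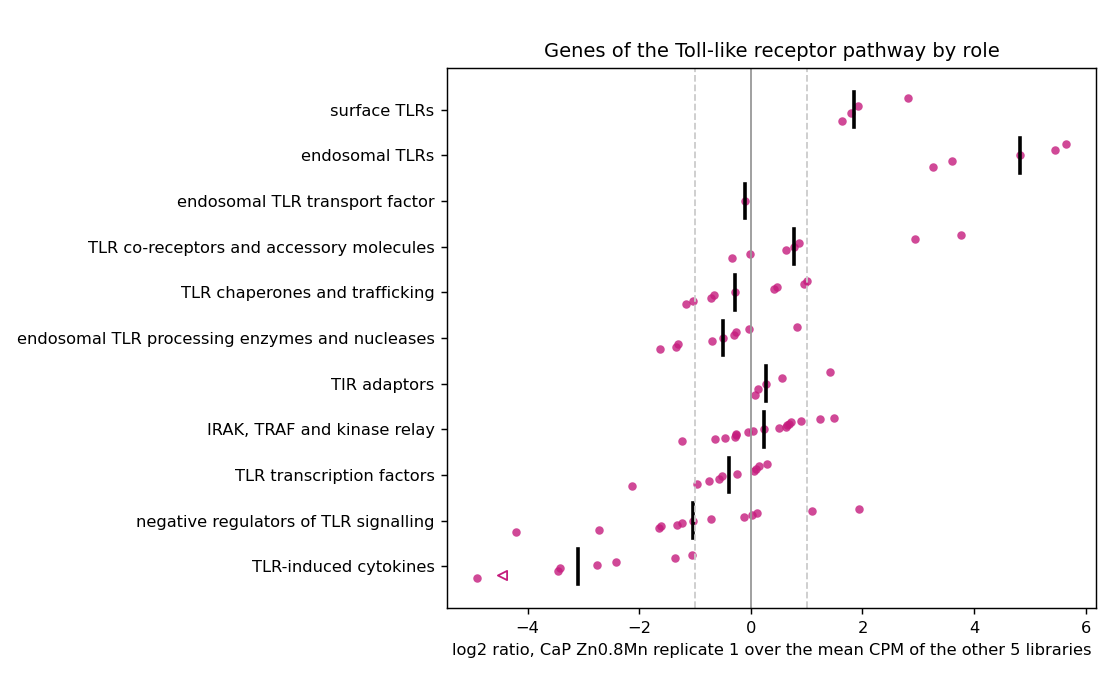
Log2 ratio of CaP Zn0.8Mn replicate 1 over the mean CPM of the other 5 libraries for each tested gene, grouped by role, with a black bar at each median, dashed lines at 2-fold and an open triangle for Ccl5, which is a bound. Medians are 4.82 for the endosomal receptors, 1.86 for the surface receptors and -3.09 for the induced cytokines.

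Between alloys, the genes were tested in the 5 libraries other than CaP Zn0.8Mn replicate 1, so that CaP Zn0.8Mn was represented by replicate 2 alone and its spread was taken from the other groups. In CaP Zn0.8Mn0.1Li set against CaP Zn, 0 of the 10 genes passed edgeR's quasi-likelihood test at an adjusted p of 0.05 with Benjamini-Hochberg adjustment over 13627 genes, and 1 gene in the whole table did (0.00734%). The alternative limma-voom fit likewise called 0 members. DESeq2 called 0 too, but it gave an adjusted p only to Tlr2, Tlr4 and Unc93b1. It gave none to Tlr1, Tlr3, Tlr6, Tlr7, Tlr8, Tlr9 and Tlr13, so its result says nothing about those genes. At an unadjusted p under 0.05 edgeR gave 2 members, Tlr7 and Tlr9, where 5.16% of all tested genes reached it. The lithium-bearing libraries lay below both CaP Zn libraries without overlap for 5 members, namely Tlr2, Tlr4, Tlr7, Tlr9 and Tlr13, where 18.5% of all tested genes were lower and 15.2% higher without overlap.

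Tlr7 averaged 3.72 ± 0.636 CPM on CaP Zn0.8Mn0.1Li and 6.75 ± 2.45 CPM on CaP Zn (SD, n = 2 each). Its log2 fold change was -0.86 with a standard error of 0.26, and edgeR's quasi-likelihood test with Benjamini-Hochberg adjustment gave an adjusted p of 0.603. Without CaP Zn replicate 1, the library with the higher value, the fold change was -0.43. Without CaP Zn replicate 2 it was -1.17 and was called at an adjusted p of 4.68e-04 with edgeR, together with Tlr4 at -0.46 and an adjusted p of 0.0259, with a single residual degree of freedom left. Tlr4 without CaP Zn replicate 1 was at -0.07.

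Tlr9 averaged 2.53 ± 0.583 CPM on CaP Zn0.8Mn0.1Li and 4.23 ± 1.06 CPM on CaP Zn, with a log2 fold change of -0.73 and a standard error of 0.30 (adjusted p = 0.939, edgeR). Tlr13 averaged 2.16 ± 0.110 CPM on CaP Zn0.8Mn0.1Li and 3.22 ± 0.635 CPM on CaP Zn, with a log2 fold change of -0.57. Without CaP Zn replicate 1, the fold changes were -0.45 for Tlr9 and -0.35 for Tlr13. Tlr8 and Tlr3 had log2 fold changes of -0.76 and -0.28, on 5 to 18 counts per library on CaP Zn0.8Mn0.1Li and 8 to 22 on CaP Zn, and their libraries overlapped. All 5 endosomal genes had a negative fold change with a median of -0.73, beside -0.09 over the 4 surface receptors and -0.00068 over all tested genes.

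Among the surface receptors, Tlr4 averaged 21.9 ± 0.579 CPM on CaP Zn0.8Mn0.1Li and 26.8 ± 5.29 CPM on CaP Zn, a log2 fold change of -0.28 with a standard error of 0.14. Tlr2 averaged 68.2 ± 0.508 CPM on CaP Zn0.8Mn0.1Li and 73.7 ± 2.72 CPM on CaP Zn, a log2 fold change of -0.10. Tlr1 and Tlr6 had log2 fold changes of 0.03 and -0.08. Unc93b1 averaged 324 ± 13.7 CPM on CaP Zn0.8Mn0.1Li and 330 ± 6.54 CPM on CaP Zn, a log2 fold change of -0.01 with a standard error of 0.09. None of these passed the test.

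In CaP Zn0.8Mn0.1Li set against CaP Zn0.8Mn replicate 2, 0 of 10 members passed the adjusted test, where 0.0294% of all tested genes did, and DESeq2 and limma-voom also called 0. At an unadjusted p under 0.05 edgeR gave 2 members, Tlr7 and Tlr2, where 3.21% of all genes reached it. Tlr7 averaged 3.72 ± 0.636 CPM on CaP Zn0.8Mn0.1Li (SD, n = 2), against the single value of 9.70 CPM on CaP Zn0.8Mn, a log2 fold change of -1.38 with a standard error of 0.30. Tlr7 had a p of 0.000253 and an adjusted p of 0.575 with edgeR's quasi-likelihood test and Benjamini-Hochberg adjustment. Tlr7 was called without CaP Zn replicate 1, without CaP Zn replicate 2, without CaP Zn0.8Mn0.1Li replicate 2 and with no filter on low counts. It was not called without CaP Zn0.8Mn0.1Li replicate 1. Each of these fits called more genes over the whole table than the main fit did, on a single CaP Zn0.8Mn library. The fits without a further library had a single residual degree of freedom. Tlr2 had a log2 fold change of -0.24 with a standard error of 0.11. Lower without overlap were 6 of the 10, where 35.6% of all genes were, and 0 were higher, where 32.4% were. The 5 endosomal fold changes were all negative, with a median of -0.33 beside -0.17 for the surface receptors.

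In CaP Zn0.8Mn replicate 2 against CaP Zn, 0 of 10 members passed the adjusted test, where 0.0147% of all tested genes did, and 0 did so before adjustment, where 4.52% of all genes did. DESeq2 and limma-voom called 0 members too. Tlr7 had a log2 fold change of 0.52 with a standard error of 0.29 and Tlr9 one of -0.50 with a standard error of 0.36. Without overlap, Tlr3, Tlr9 and Tlr13 were lower, where 34.1% of all genes were, and Tlr2, Tlr6 and Tlr7 were higher, where 31% were. The endosomal genes had no common direction, with 2 positive and 3 negative values. With CaP Zn0.8Mn replicate 1 included, all 6 libraries gave 0 called members, and log2 fold changes of 4.50 for Tlr13 in place of -0.23 and 4.43 for Tlr7 in place of 0.52. The comparisons with CaP Zn share those libraries, and the 2 with CaP Zn0.8Mn share its replicate 2, so their directions are not independent of each other.

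**Figure D4:**
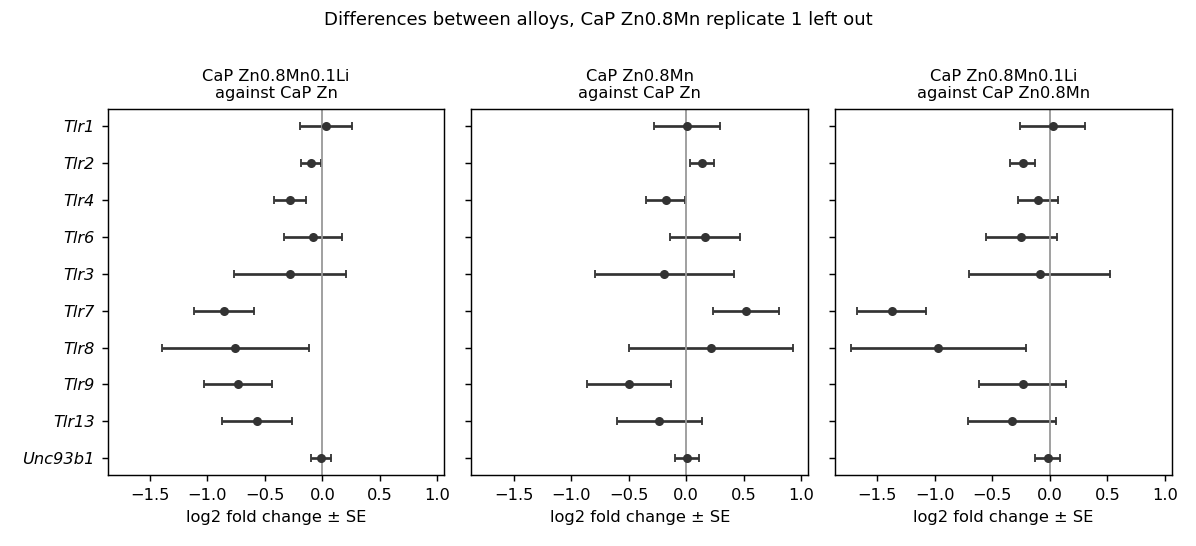
Log2 fold change of each of the 10 genes with its standard error in the 3 comparisons of alloys, fitted on the 5 libraries without CaP Zn0.8Mn replicate 1. Tlr7 has the widest differences, at -1.38 in CaP Zn0.8Mn0.1Li set against CaP Zn0.8Mn and -0.86 against CaP Zn, and none of the plotted values passed the adjusted threshold of 0.05.

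Of the 78 tested genes of the surrounding lists, 0 passed the adjusted edgeR test in any of the 3 comparisons. DESeq2 called 0 as well, among those to which it gave an adjusted p. At an unadjusted p under 0.05 edgeR gave 16 of them in CaP Zn0.8Mn0.1Li set against CaP Zn, 3 in CaP Zn0.8Mn0.1Li set against CaP Zn0.8Mn and 6 in CaP Zn0.8Mn against CaP Zn, beside 5.16%, 3.21% and 4.52% of all tested genes in that order. Fits without a CaP Zn or CaP Zn0.8Mn0.1Li library left that group with a single library. The number of the 78 genes called differed with the library left out and was above 0 in some of those fits, so no count from them is given. With no filter on low counts, edgeR called 2 of the 78 in CaP Zn0.8Mn0.1Li set against CaP Zn, where 0.225% of all genes were called. In CaP Zn0.8Mn0.1Li set against CaP Zn the transporter Slc15a3 had 64.2 and 80.9 CPM on CaP Zn0.8Mn0.1Li and 51.5 and 55.0 CPM on CaP Zn, a log2 fold change of 0.46 with a standard error of 0.11 and an adjusted p of 0.330. The chemokine Ccl2 had 15.4 and 18.8 CPM on CaP Zn0.8Mn0.1Li and 10.4 and 10.5 CPM on CaP Zn, a log2 fold change of 0.72 with an adjusted p of 0.320. Other named values were 0.27 for the scavenger receptor Cd36, 0.22 for Hmgb1, -0.34 for Rab7b, 0.39 for Ctsl and 0.33 for Ctsk on the log2 fold change scale. Adaptors and kinases gave -0.29 for Tirap, -0.18 for Ticam2, -0.35 for Irak4 and -0.33 for Traf6. Transcription factors and regulators gave -0.25 for Relb, -0.20 for Irf5, 0.43 for Il1rl1 and 0.34 for Dusp1, and Cxcl2 had 0.25.

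Cx3cr1, the gene closest to Tlr7 over the 6 libraries, had 13.2 and 14.7 CPM on CaP Zn0.8Mn0.1Li and 25.1 and 19.3 CPM on CaP Zn, a log2 fold change of -0.66 with a standard error of 0.15 and an adjusted p of 0.320 in edgeR. It was lower on CaP Zn0.8Mn0.1Li without overlap, where 18.5% of all tested genes were, and did not pass the test. Tlr7 was too, but Cx3cr1 was picked for its likeness to Tlr7 over libraries that include these, so the shared direction is no separate result.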

How the data were processed

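Whole-number read counts per gene, and FPKM values beside them, were deposited by the authors for 54532 genes in 6 libraries, per the file headers. The submitters' processing notes name the build mm9, but 98.3% of the 54409 gene IDs matched to GENCODE M21 have GRCm38 starts and ends, so coordinates are given as in the files. The aligner and counter were not given in the sources used here. No column outside the 6 samples was found.

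Counts were fitted with edgeR 4.0.16 in R 4.3.3 (TMM scaling, quasi-likelihood test, Benjamini-Hochberg adjustment over 13627 genes kept by filterByExpr) on the 5 libraries without CaP Zn0.8Mn replicate 1, with 2 residual degrees of freedom. CPM are TMM-scaled. Log2 CPM used a prior count of 1. limma 3.58.1 and DESeq2 1.42.0 served as alternatives. The fit was tested on simulated data. Likeness is the Euclidean distance between gene profiles of centred log2 CPM over 6 libraries. Promoter windows and motif shares came from RefSeq.

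The members and gene lists were chosen with earlier results of these data known. Named were all members and, from each list, the 3 genes of at least 5 CPM with the largest ratio in CaP Zn0.8Mn replicate 1 and the 2 with the largest fold change on CaP Zn0.8Mn0.1Li relative to CaP Zn. Cx3cr1, Csf1r, Mpeg1, Lyz2, Ccl5, P2ry12, Fcrls, Bst2, Itgax, Blnk, Runx2, S100a8, Xist, Tsix and the flanking genes were named after their values were seen. Replicate numbers come from the sample titles. Another marker list and its genes are not reported here.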

Additional observations from a re-analysis of the deposited data

How the results depend on the processing

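The 9 receptors over 2-fold higher in CaP Zn0.8Mn replicate 1 stayed so under RLE scaling, library totals, FPKM, 1.5-fold and 3-fold limits and against CaP Zn0.8Mn replicate 2 alone. Between alloys, genes called numbered 1 in CaP Zn0.8Mn0.1Li set against CaP Zn, 4 in CaP Zn0.8Mn0.1Li set against CaP Zn0.8Mn and 2 for CaP Zn0.8Mn against CaP Zn, and these counts moved with the settings; the cause was not tested. CaP Zn0.8Mn0.1Li set against CaP Zn gave 0 genes with library totals, a mean count of at least 100, all 6 libraries and each FPKM fit, 4 with limma-voom, 51 with no filter and 27 with the replicate block. CaP Zn0.8Mn0.1Li set against CaP Zn0.8Mn gave 13 genes and 1 member with no filter, 2 genes with a mean count of at least 100, 10 genes and 1 member with the replicate block, 0 with all 6 libraries, and 0, 0 and 245 with log2(FPKM + 1), log2(FPKM + 0.1) and unfiltered log2(FPKM + 1) in limma. CaP Zn0.8Mn against CaP Zn gave 5 genes with DESeq2 and 5 with limma-voom, 19 with no filter, 8 with the replicate block, 0 with all 6 libraries, and 0, 1 and 216 with those 3 FPKM fits.

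Leaving out 1 library gave 0 to 446 genes and 0 to 2 members in CaP Zn0.8Mn0.1Li set against CaP Zn, 10 to 43 genes and 0 to 1 members in CaP Zn0.8Mn0.1Li set against CaP Zn0.8Mn, and 20 to 199 genes for CaP Zn0.8Mn against CaP Zn. Without CaP Zn0.8Mn replicate 2 the contrasts with CaP Zn0.8Mn could not be estimated. The member called in CaP Zn0.8Mn0.1Li set against CaP Zn0.8Mn was Tlr7, at -1.38 with no filter and -1.49 with the replicate block (edgeR adjusted p = 0.00170 and 0.0219). Replicate numbers correlated at -0.318 for CaP Zn0.8Mn0.1Li and CaP Zn, -0.119 for CaP Zn0.8Mn0.1Li and CaP Zn0.8Mn and 0.371 for CaP Zn0.8Mn and CaP Zn, over deviations of 9765 genes, so they do not pair the samples. Crossed numbers, tried after seeing the data, gave 213 genes and 1 member in CaP Zn0.8Mn0.1Li set against CaP Zn.

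Signs reversed in 27 member values (log2 fold changes). With library totals, Tlr1 was -0.014 in CaP Zn0.8Mn0.1Li set against CaP Zn and -0.0624 in CaP Zn0.8Mn against CaP Zn, and Unc93b1 was 0.0023 in CaP Zn0.8Mn0.1Li set against CaP Zn0.8Mn and -0.0586 in CaP Zn0.8Mn against CaP Zn. With the replicate block, Tlr1 was -0.0459 in CaP Zn0.8Mn0.1Li set against CaP Zn0.8Mn and Tlr3 was 0.0113 in CaP Zn0.8Mn against CaP Zn. With all 6 libraries, CaP Zn0.8Mn against CaP Zn gave 1.93 for Tlr4, 2.63 for Tlr3, 2.10 for Tlr9, 4.50 for Tlr13 and -0.0188 for Unc93b1, and CaP Zn0.8Mn0.1Li set against CaP Zn0.8Mn gave -1.29 for Tlr1 and 0.0051 for Unc93b1, since CaP Zn0.8Mn replicate 1 enters that group. Leaving out 1 library, CaP Zn0.8Mn0.1Li set against CaP Zn ranged from -0.180 to 0.299 for Tlr1, -0.498 to 0.242 for Tlr6 and -0.0576 to 0.0256 for Unc93b1. CaP Zn0.8Mn0.1Li set against CaP Zn0.8Mn ranged from -0.0717 to 0.113 for Tlr1, -0.665 to 0.0764 for Tlr6, -0.398 to 0.159 for Tlr3 and -0.0633 to 0.0181 for Unc93b1. CaP Zn0.8Mn against CaP Zn ranged from -0.204 to 0.277 for Tlr1, -0.355 to 0.0371 for Tlr4, -0.121 to 0.709 for Tlr8 and -0.0200 to 0.0340 for Unc93b1. Low counts limit Tlr3 and Tlr8, at 5 to 22 counts in the 5 libraries, and TMM, RLE and library totals gave median log2 ratios over all tested genes of -0.10, -0.06 and -0.0047 in CaP Zn0.8Mn replicate 1 set against the mean of the other 5.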
